A study of Mus musculus with 36 samples.

Results

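A set of 65 array probes out of 46019 fell by 48 h after mouse myoblasts were moved to differentiation medium and had partly recovered by 144 h. The probes were chosen on the authors' deposited normalized log2 values, as differences between the mean of the 3 arrays at a time and the mean of the 3 arrays at 0 h. A member had a 12 h difference above -0.4, a 48 h difference of -0.8 or lower, a 144 h difference at least 0.5 above its 48 h difference, and a rise between the same-numbered 48 h and 144 h arrays in all 3 replicates. Of the 65 probes, 54 carried 1 gene symbol and stood for 51 genes, since Mxra8, Ptprd and Igfbp5 had 2 probes each. The other 11 have no gene here. The genes included detoxifying enzymes (Aldh3a1, Cyp1b1), secreted proteins (Sfrp2, Ogn, Mmp2), transcription factors (Tcf4, Cebpa, Nfib), membrane and signalling proteins (Rcan2, Ghr, Cxcr4) and lysosomal proteins (Grn, Gm2a).

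C2C12 is an established, clonal line of mouse myoblasts, the mononucleated precursors of skeletal muscle. In rich serum the cells divide. When serum is lowered, many leave the cell cycle, switch on contractile genes and fuse into multinucleated myotubes, while some stay single and undifferentiated. Myoblasts also secrete matrix proteins, proteases and growth factor binding proteins, and detoxifying enzymes protect them from aldehydes and peroxides. Total RNA from the whole culture was used, so fewer cells of a type and less RNA per cell cannot be told apart.

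Later cultures had been in DMEM with 2% horse serum for 1, 1.5, 2, 3, 6, 9, 12, 24, 48, 96 or 144 h. Undifferentiated cultures, sampled at 0 h, were growing in DMEM with 20% FBS. All groups were C2C12 cells with no other treatment named, and each time had 3 arrays from successive passages, 36 arrays in all. The p-values therefore measure the spread between cultures and arrays of a single line. Values called levels below are log2 intensities after background correction and quantile normalization of the deposited raw table, and each change is a difference of such levels.

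The arrays lay on 6 chips, and within each replicate 1 chip held the arrays of 48, 96 and 144 h. Raw median intensity lay between 179 and 307 per array. Of 24 muscle differentiation genes, 20 were tested, and 16 of these were higher at 24 h than at 1 to 3 h and 17 at 96 h. Their mean level was 13.14 ± 0.12 at 144 h and 9.90 ± 0.51 at 0 h (SD, n = 3). Of the markers of other cell types, 5 of 8 fibroblast, 5 of 8 adipocyte, 5 of 8 osteoblast and 3 of 8 macrophage genes were bright enough to test. The macrophage genes Adgre1 and Lyz2 averaged between 6.75 and 6.99 at 0, 48 and 144 h and the fat cell gene Adipoq between 7.17 and 7.30, below the median tested probe at 7.62. The fat cell genes Fabp4, Cidec and Retn also stood below it. Above it were the macrophage gene Cd14 (9.00, 8.07 and 8.10) and the fat cell gene Pparg (9.10, 8.52 and 8.10). Exactly 1 gene of each of these lists was lower at 24 h than at 1 to 3 h: Pdgfra by a change of -0.67, Pparg by -0.72, Phex by -2.24 and Cd14 by -0.72. Pdgfra had a 0 h mean of 10.24, a 48 h mean of 8.40 and a 144 h mean of 8.80, and its change of 0.40 after 48 h did not pass (adjusted p = 0.10). At 96 h Pdgfra and Col14a1 were lower than at 1 to 3 h, by changes of -1.13 and -0.54 (adjusted p = 3.5e-09 and 0.038). Fap, another fibroblast gene, was higher at 24 h by 0.54 and at 96 h by 0.59 (adjusted p = 0.003 and 4.8e-04). Its means of 6.76, 7.05 and 7.37 at 0, 48 and 144 h lay below the median tested probe. The bright fibroblast genes Pdgfrb and S100a4 passed at neither 24 h nor 96 h. The part of these genes' cell types in the members' course was not tested.

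The median member changed little before 24 h. The median change from 0 h lay between -0.17 and 0.03 at all times up to 12 h. By 24 h it was -0.51 and by 48 h -1.29, after which it was -0.90 for 96 h and -0.41 for 144 h. All 65 had their lowest mean of the 12 times at 48 h. All 65 had a higher mean at 96 h than at 48 h, which describes the set, since low 48 h values chose the members, and 60 had a higher mean at 144 h than at 96 h. The median member had made 48.3% of its rise by 96 h, with 11 members above 80% and 12 below 20%. At 144 h the 3 arrays overlapped the 0 h arrays for 40 members and lay wholly below them for 25, a count not made for all probes. By mean, 62 members stood below 0 h at 144 h, where 52.7% of all tested probes did. Both times were used to choose the members, so these counts describe the set. The fall was deepest for Aldh3a1, at -2.72 on the authors' scale, and the largest rise after 48 h was 1.38, of a probe without a gene.

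**Figure D1:**
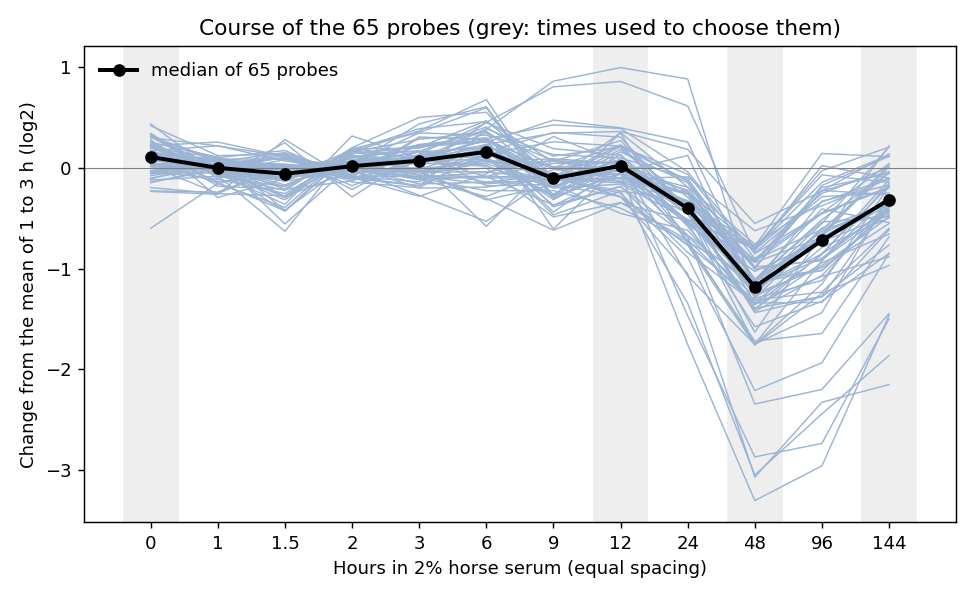
Change of each of the 65 probes from the mean of 1 to 3 h (vertical axis, log2) at each time in 2% horse serum (horizontal axis, equal spacing), 1 thin line per probe, with the median in black and the times used to choose the probes shaded grey. The median lies close to 0 until 12 h, while Htra3 and Ramp2 stand 0.86 and 0.81 higher at 9 h, and all 65 reach their lowest mean at 48 h, the time that chose them.

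The thresholds of the rule fell within a continuous range. The member nearest to the 12 h limit stood at -0.40 and the nearest probe outside, failing that condition alone, at -0.45. For the 48 h limit these values were -0.82 and -0.79, and 524 probes failed it alone. For the rise after 48 h they were 0.51 and 0.50, and 53 probes failed it alone, while another 41 failed only through a replicate that did not rise. On the background-corrected scale, 62 members passed the test (limma, adjusted p under the threshold of 0.05) as lower at 48 h than at 0 h, where 10.9% of all 29812 tested probes did. At 144 h against 48 h, 45 members passed as higher, where 3.95% of all did, and at 144 h against 0 h 18 passed as lower, where 12.2% of all did. These contrasts chose the members, so they describe the set and support nothing.

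The promoters of Cyp1b1 and Txnip are printed as examples, to show which short motifs were searched. Both hold a searched motif, and they do not stand for the windows of the other members. RefSeq promoter windows of 300 bases (build GRCm38.p6, 250 bases before and 50 after a transcript start) matched 38 of the 51 genes, with 52 windows. Cyp1b1, a cytochrome P450 that oxidises steroids and foreign compounds, is a textbook target of the aryl hydrocarbon receptor, whose element has the core GCGTG. Its window lies at chr17:79715012-79715311 on the minus strand. Txnip, which binds and inhibits thioredoxin and restrains glucose uptake, lies at chr3:96557707-96558006 on the plus strand. Capitals mark GCGTG or its reverse CACGC, and the forkhead motif TGTTTAC or its reverse GTAAACA.
Cyp1b1: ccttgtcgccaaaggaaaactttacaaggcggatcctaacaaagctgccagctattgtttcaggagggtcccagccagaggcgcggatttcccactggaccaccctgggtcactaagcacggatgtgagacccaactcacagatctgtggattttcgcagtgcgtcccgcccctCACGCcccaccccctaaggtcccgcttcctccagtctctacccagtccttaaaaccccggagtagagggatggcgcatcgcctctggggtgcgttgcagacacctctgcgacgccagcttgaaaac
Txnip: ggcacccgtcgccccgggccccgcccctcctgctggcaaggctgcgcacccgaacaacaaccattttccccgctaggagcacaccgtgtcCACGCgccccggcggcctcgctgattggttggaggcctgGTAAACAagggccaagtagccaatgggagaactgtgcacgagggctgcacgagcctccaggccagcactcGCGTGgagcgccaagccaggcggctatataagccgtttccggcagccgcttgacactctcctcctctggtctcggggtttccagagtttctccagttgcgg

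The Cyp1b1 window held GCGTG 1 time, and the Txnip window held it 2 times with TGTTTAC 1 time. Over both strands, GCGTG was in 18 of the 52 member windows (34.6%) and in 32.4% of all 32851 promoter windows. TGTTTAC was in 4 member windows (7.69%), those of Fcgrt, Mxi1, Selenop and Txnip, against 3.65% of all windows. The E-box CACGTG, which contains neither other motif, was in 2 (3.85%), against 7.15%. A match describes these letters and is not a binding site.

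The times the rule did not use gave the tests. The 24 h and 96 h arrays were compared with the 12 arrays of 1, 1.5, 2 and 3 h, and with each other, in a fit of all 29812 tested probes, and all 65 members had passed the filter on dim probes. This fit had no term for the replicate number, so the 12 early arrays, which carry 3 replicate numbers, counted as independent. Same-numbered deviations at 24 h and at 1 to 3 h correlated across probes at 0.46 to 0.68, which its SEs and p-values do not allow for. At 24 h, 19 members were lower than at 1 to 3 h and 2 were higher, where 5.87% of all tested probes were lower and 7.00% higher. The members' median change was -0.40, against 0.00 for all tested probes. At 96 h, 47 members were lower and 0 higher, where 16.4% of all were lower and 13.4% higher, and the median change was -0.72. By sign alone, 63 of the 65 stood below 1 to 3 h at 96 h. At 96 h against 24 h, 14 members were lower and 0 higher, where 5.08% of all were lower and 4.66% higher, with a median change of -0.42. At an unadjusted p under 0.05 the limma fit had 0 members higher at 96 h than at 1 to 3 h and 1 higher at 96 h than at 24 h.

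In either direction, 21, 47 and 14 members were called in these comparisons, where 12.9%, 29.9% and 9.74% of all tested probes were. A block for the replicate number made 33 members lower and 2 higher at 24 h, 52 lower at 96 h, and 25 lower and 1 higher at 96 h against 24 h. Blocking on the chip gave 29 lower and 3 higher at 24 h. Shares of all tested probes called, here and below, are from the fit of all arrays without a block. Counts from other fits therefore have no share beside them. Without replicate 2 the calls were 10 at 24 h, 29 at 96 h and 8 in the comparison of the later times. Without replicate 3 they were 8 at 24 h and 7 in the comparison of the later times. Leaving out only the 24 h array of replicate 2 gave 13 calls at 24 h, leaving out only that of replicate 3 gave 10, and median scaling gave 9.

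**Figure D2:**
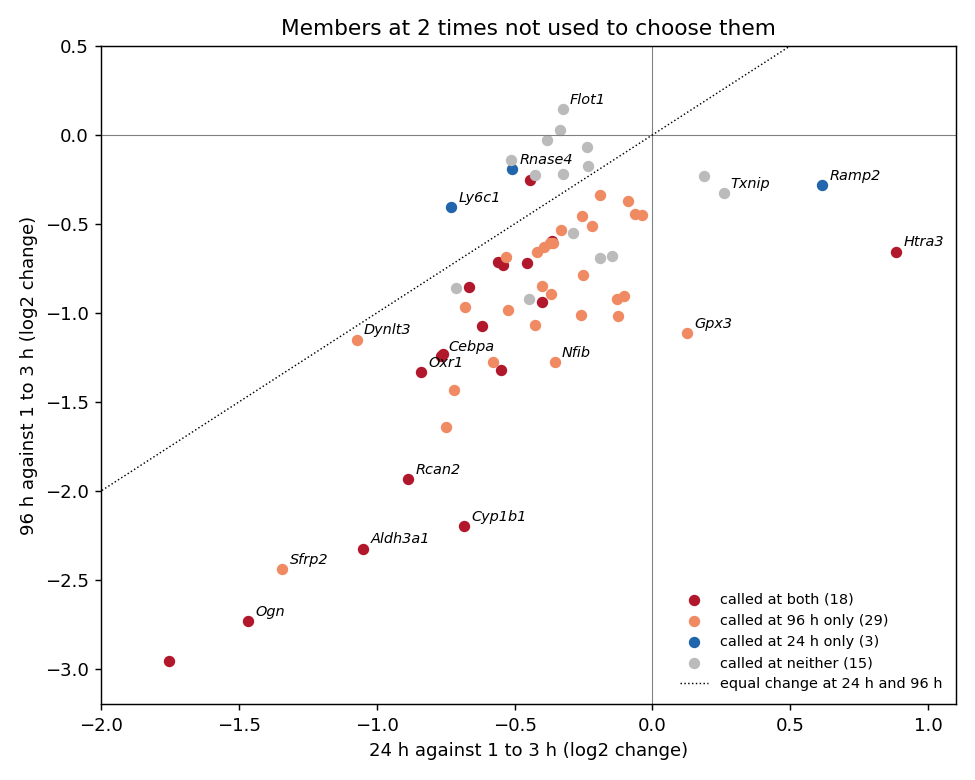
Change of each of the 65 probes at 96 h against 1 to 3 h (vertical axis, log2) plotted over its change at 24 h against 1 to 3 h (horizontal axis, log2), coloured by the times at which it passed the test, with a dotted line of equal change. Most probes lie below the dotted line, Htra3 and Ramp2 stand alone at the right with higher levels at 24 h, and Flot1 lies at the top.

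The step between 9 h and 24 h was tested separately, since in all 3 replicates 1 chip held both of these arrays. Aldh3a1, Aldh2, Mt2, Rcan2, Cebpa and Vsir were lower at 24 h than at 9 h and no member was higher, also at an unadjusted p under 0.05, where 0.443% of all tested probes were lower, 1.77% higher and 2.22% either. The replicate block gave 12 members and the chip as a block 16. This count rested on single arrays: leaving out replicate 2, or its 9 h array alone, gave 0, and leaving out replicate 3, or the 9 h array of replicate 1, gave 2. Leaving out the 24 h array gave 1 for replicate 1 and 3 for replicate 2 or 3, and median scaling gave 1. At 9 h against 1 to 3 h, 3 members were higher (Htra3, Ramp2 and a probe without a gene) and 0 lower (1 at an unadjusted p under 0.05), where 1.92% of all were higher, 1.36% lower and 3.27% either. With the replicate block 4 were higher and 2 lower, and with the chip as a block 4 were higher and 1 lower. Without replicate 2 there was 1 call, and without replicate 3 there were 0.

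Detoxification and redox genes made up 10 of the 51 genes. At 24 h 6 of their 10 probes were lower than at 1 to 3 h, at 96 h 8 were, and 4 were lower at 96 h than at 24 h. Aldh3a1 oxidises aromatic and lipid aldehydes and is induced through the aryl hydrocarbon receptor in liver. Its level was 11.90, 11.88 and 11.81 at 24 h, and between 12.52 and 13.12 with a median of 12.98 at 1 to 3 h. The groups did not overlap, and the change was -1.05 ± 0.18 (SE), 2.07-fold lower (adjusted p = 5.9e-05). The 96 h arrays read 10.49, 10.84 and 10.44, below every 24 h array, with a change of -2.33 ± 0.18 from 1 to 3 h (adjusted p = 4.8e-12) and of -1.28 ± 0.22 from 24 h (adjusted p = 1.9e-04). Across the wider course its mean at 0 h was 12.87 ± 0.13, that of 48 h 9.85 ± 0.59, that of 96 h 10.59 ± 0.21 and that of 144 h 10.76 ± 0.06 (SD, n = 3), so it had made 81.0% of its small rise by 96 h and remained far below 0 h.

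Cyp1b1, whose promoter is printed above, stood at 12.34, 11.95 and 12.24 at 24 h and between 12.16 and 13.51 at 1 to 3 h, with overlap. The change was -0.68 ± 0.22 (adjusted p = 0.04). At 96 h its arrays read 11.10, 9.94 and 10.94, all below the 24 h arrays, a change of -1.51 ± 0.28 from 24 h (2.86-fold, adjusted p = 4.1e-04). In contrast to Aldh3a1, it had made only 16.1% of its rise by 96 h. Its arrays read 11.90, 10.93 and 11.41 at 144 h, against 10.18, 10.44 and 10.92 at 48 h, and 1 of the 96 h arrays lay below all 48 h arrays.

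Gpx3, a secreted glutathione peroxidase, did not follow the early part of this course. It stood at 13.16, 13.73 and 13.50 at 24 h, within or just above the 1 to 3 h range of 13.08 to 13.62, with a change of 0.12 ± 0.17 (adjusted p = 0.76). Its 96 h arrays read 12.03, 12.47 and 12.17, below all 24 h arrays, a change of -1.24 ± 0.22 from 24 h (adjusted p = 1.9e-04). Without replicate 3 the adjusted p of this change was 0.055. Aldh2, the mitochondrial aldehyde dehydrogenase, was lower at 24 h by a change of -0.62 ± 0.09 and at 96 h by -1.07 ± 0.09 (adjusted p = 5.4e-06 and 3.4e-11). Mt2, a metal-binding metallothionein, changed by -0.76 ± 0.13 at 24 h and -1.23 ± 0.13 at 96 h (adjusted p = 8.3e-05 and 7.2e-09). Both enzymes of aldehyde breakdown and the metallothionein were thus lower at both times.

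Oxr1, which protects against oxidative damage, read 10.38, 9.83 and 9.72 at 24 h and between 9.94 and 11.57 at 1 to 3 h, a change of -0.84 ± 0.28 (adjusted p = 0.046). The ranges overlapped, and this call was lost in 15 of 26 alternatives, among them those without the 24 h array of replicate 2 (adjusted p = 0.20) or of replicate 3 (adjusted p = 0.24), median scaling (adjusted p = 0.13) and the table normalized by the authors (adjusted p = 0.057). The 96 h call had a lower p, with a change of -1.33 ± 0.28 (adjusted p = 3.8e-04). Sesn3, a sestrin that restrains mTORC1 signalling, passed at 96 h alone, with a change of -0.63 ± 0.17 (adjusted p = 0.004).

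The redox genes Txnip and Selenop passed at neither time. Txnip read 12.86, 13.22 and 13.34 at 24 h, within the 1 to 3 h range of 12.42 to 13.45. It then read 10.96, 12.28 and 11.98 at 48 h. By 96 h its arrays read 12.96, 12.12 and 12.58, and by 144 h they read 12.59, 12.60 and 12.95. Its dip was deepest in replicate 1, and replicate 2 was lower at 96 h than at 48 h. Selenop, the selenium transport protein of plasma, spread widely at 1 to 3 h, between 9.43 and 12.31, and its 96 h change was -0.92 ± 0.48 (adjusted p = 0.17, and 6.2e-04 with the replicate block).

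Secreted and matrix proteins gave 9 genes and 11 probes, of which 5 were lower and 1 higher at 24 h (8 and 1 with the replicate block) and 10 lower at 96 h. Sfrp2 is a secreted antagonist of Wnt signalling, and Dkk3 is a secreted protein of the Dickkopf family. Sfrp2 read 9.68, 8.42 and 9.01 at 96 h, all below the 1 to 3 h range of 10.57 to 12.72, a change of -2.44 ± 0.50 (5.43-fold lower, adjusted p = 2.8e-04). Its 24 h arrays read 11.25, 9.39 and 9.76, and the change of -1.34 ± 0.50 did not pass (adjusted p = 0.081), but passed with the replicate block (adjusted p = 1.4e-04). Replicate 1 was the highest of the 3 at both times. Dkk3 read 10.79, 10.78 and 10.69 at 24 h and 9.88, 9.72 and 10.34 at 96 h, all below the 1 to 3 h range of 10.89 to 11.63. Both secreted proteins were therefore lower at 96 h, and the 24 h change of Dkk3 was -0.55 ± 0.14 (adjusted p = 0.007).

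Ogn encodes osteoglycin, a small leucine-rich proteoglycan of the matrix. It read 10.14, 9.25 and 9.44 at 24 h and between 9.91 and 12.10 at 1 to 3 h, a change of -1.47 ± 0.39 (2.76-fold lower, adjusted p = 0.009). The 24 h array of replicate 1 lay inside the 1 to 3 h range, and the call was lost without the 24 h array of replicate 2 (adjusted p = 0.087) or of replicate 3 (adjusted p = 0.063), or without replicate 3 at all times (adjusted p = 0.20). At 96 h all 3 arrays, 8.49, 7.92 and 8.62, lay below that range, a change of -2.73 ± 0.39 (adjusted p = 1.4e-06). At 144 h Ogn read 10.97 in replicate 1, against 8.45 and 9.31 in the others.

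Mmp2, a gelatin-degrading metalloproteinase, was the only member on a list of 24 matrix genes. It read 14.78, 15.01 and 15.36 at 0 h, 13.42, 13.99 and 14.01 at 48 h. By 96 h its arrays read 14.27, 14.25 and 14.72, and by 144 h they read 14.59, 14.83 and 15.21. Its 48 h arrays were the lowest, and its 144 h arrays overlapped those of 0 h. At 96 h it was lower than at 1 to 3 h by a change of -0.51 ± 0.15 (adjusted p = 0.009). Of the 20 tested genes of that list, Mmp2 among them, 1 was higher and 6 were lower at 48 h than at 0 h, with a median change of -0.26, and 7 were higher and 0 lower at 144 h than at 48 h, with a median of 0.45. Compared with 1 to 3 h, 0 were higher and 5 lower at 24 h, and 4 were higher and 6 lower at 96 h, with a median change of 0.01 at 96 h. Mmp2 itself passed at 24 h with the replicate block alone, with a change of -0.22 (adjusted p = 0.011).

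Htra3, a secreted serine protease, ran against the set before 48 h. It read 11.27, 11.93 and 11.57 at 24 h, all above the 1 to 3 h range of 10.30 to 11.08, a change of 0.89 ± 0.18 (1.85-fold higher, adjusted p = 6.1e-04). It was already higher at 9 h, by 0.86 ± 0.18 (adjusted p = 0.004). At 96 h it read 10.16, 10.20 and 9.79, below all 24 h arrays, a change of -1.54 ± 0.23 (2.91-fold lower, adjusted p = 1.4e-05). Igfbp5, a binding protein for insulin-like growth factors that myoblasts secrete, had 2 member probes, with 96 h changes of -0.34 ± 0.09 and -0.45 ± 0.13 (adjusted p = 0.004 and 0.008).

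**Figure D3:**
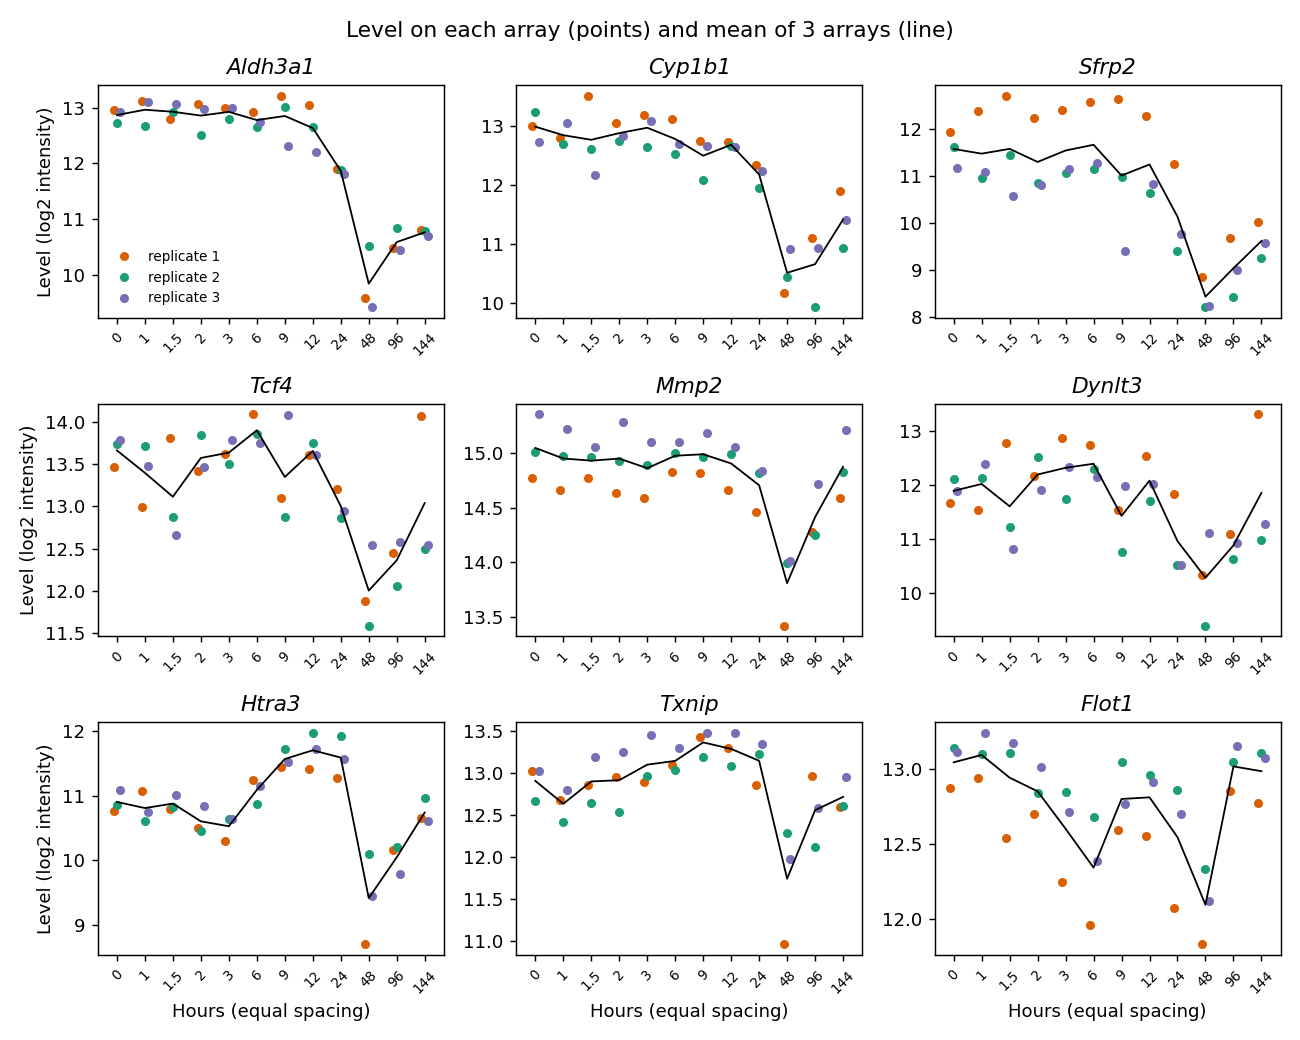
Level of 9 member genes (vertical axes, log2 intensity) on each array at each time (horizontal axis, equal spacing), points coloured by replicate and a line through the mean of 3 arrays. Aldh3a1, Cyp1b1 and Sfrp2 stay well below their 0 h level at 144 h, Htra3 is high at 9 to 24 h before its fall, and Tcf4 and Dynlt3 at 144 h are high in replicate 1 alone.

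Transcription and RNA factors gave 9 genes with 1 probe each, of which 1 was lower at 24 h (2 with the replicate block) and 5 at 96 h. Cebpa, a leucine zipper factor that promotes fat cell and myeloid fates, was the gene that passed without that block at 24 h. It read 10.94, 11.31 and 11.07 at 24 h, below the 1 to 3 h range of 11.74 to 12.23, a change of -0.77 ± 0.13 (adjusted p = 4.6e-05). At 96 h it read 10.54, 10.78 and 10.57, a change of -1.24 ± 0.13 (2.37-fold lower, adjusted p = 2.8e-09). Its arrays were close together at every one of these times.

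Tcf4, a class I helix-loop-helix partner of tissue-specific factors, read 12.46, 12.06 and 12.58 at 96 h, below the 1 to 3 h range of 12.66 to 13.84, a change of -1.07 ± 0.25 (adjusted p = 0.001). Nfib, a nuclear factor I protein, read 10.27, 9.82 and 10.28 at 96 h, below all 24 h arrays, a change of -0.92 ± 0.29 from 24 h (adjusted p = 0.037) and of -1.28 ± 0.23 from 1 to 3 h (adjusted p = 4.2e-05). Both were lower at 96 h and neither passed at 24 h. Zbtb20, a zinc finger repressor, and Kdm7a, a histone demethylase, did not pass at 96 h, with changes of -0.68 ± 0.27 (adjusted p = 0.060, and 0.046 with the replicate block) and -0.55 ± 0.32 (adjusted p = 0.22).

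Tcea3, a tissue-restricted elongation factor of the TFIIS family, had its dip at 48 h and was back in its early range at 96 h. It read 10.31, 10.82 and 10.22 at 48 h. By 96 h its arrays read 11.20, 11.39 and 11.24, and by 144 h they read 11.31, 11.73 and 11.65. The 96 h arrays lay within the 1 to 3 h range of 11.00 to 11.87, with a change of -0.17 ± 0.17 (adjusted p = 0.53).

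Membrane and signalling proteins gave 14 genes and 15 probes, of which 3 were lower and 1 higher at 24 h (7 and 1 with the replicate block) and 12 lower at 96 h. Rcan2 encodes a regulator that binds and restrains calcineurin, the calcium-dependent phosphatase that acts in muscle gene control. It read 8.81, 8.86 and 8.95 at 24 h, below the 1 to 3 h range of 9.46 to 10.02, a change of -0.89 ± 0.15 (adjusted p = 8.4e-05). At 96 h it read 7.99, 7.41 and 8.09, below all 24 h arrays, with a change of -1.94 ± 0.15 from 1 to 3 h (3.82-fold lower, adjusted p = 1.2e-11) and of -1.05 ± 0.19 from 24 h (adjusted p = 3.5e-04). Ppp3ca, a catalytic subunit of calcineurin, was a member too, and its 96 h change was -0.99 ± 0.18 (adjusted p = 6.5e-05). The regulator and the subunit were thus both lower at 96 h, and the regulator at 24 h as well. The 24 h change of Ppp3ca was -0.52, which did not pass (adjusted p = 0.054) but passed with the replicate block (adjusted p = 0.011).

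Ramp2 is a receptor partner that directs the calcitonin-like receptor to respond to adrenomedullin. It read 12.23, 12.40 and 12.35 at 24 h, all above the 1 to 3 h range of 11.11 to 12.17, a change of 0.62 ± 0.16 (adjusted p = 0.007). This call was lost without the 24 h array of replicate 2 (adjusted p = 0.057) and without all arrays of replicate 2 (adjusted p = 0.050) or of replicate 3 (adjusted p = 0.115). Like Htra3 it was already higher at 9 h, by 0.81 ± 0.16 (adjusted p = 0.003), and its 96 h arrays of 11.73, 11.21 and 11.34 were back inside the 1 to 3 h range.

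Cxcr4, the receptor for the chemokine CXCL12, read 12.23, 11.93 and 11.95 at 96 h, below all 24 h arrays, a change of -0.80 ± 0.13 from 24 h (adjusted p = 4.5e-05). It passed at 96 h against 1 to 3 h but not at 24 h, where its change was -0.10 ± 0.10 (adjusted p = 0.64). Ghr, the growth hormone receptor, read 12.61 at 144 h in replicate 1, against 10.97 and 11.01 in the others, and passed at neither 24 h nor 96 h, though with the replicate block its 96 h adjusted p was 0.033.

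Lysosome, trafficking and cytoskeleton genes were 6, of which 0 passed at 24 h and 1 was lower at 96 h. With the replicate block Dynlt3, Flot1, Gm2a and Grn were lower at 24 h (adjusted p = 0.021, 0.003, 0.021 and 0.022). By 96 h Dynlt3 had made 38.2%, Sft2d2 62.1%, Dst 76.5%, Flot1 103.6%, Gm2a 105.5% and Grn 111.4% of its rise, with a median of 90.1%. For the other roles this median was 37.9% for transcription and RNA, 39.6% for membrane and signalling and 47.9% for metabolic enzymes. It was 53.6% for detoxification and redox genes and 63.8% for secreted and matrix proteins. The roles were assigned with the members known, and the difference between roles was not tested. Flot1, a lipid raft scaffold protein, read 11.83, 12.34 and 12.12 at 48 h. By 96 h its arrays read 12.85, 13.05 and 13.15, and by 144 h they read 12.78, 13.11 and 13.08. Its 96 h arrays were back in the 1 to 3 h range of 12.25 to 13.24, and its 96 h change was 0.14 ± 0.16 (adjusted p = 0.57). Grn, the progranulin growth factor that acts in lysosomes, and Gm2a, the activator protein for ganglioside breakdown, had 96 h changes of -0.07 ± 0.10 and -0.22 ± 0.12 (adjusted p = 0.70 and 0.19). Dynlt3, a dynein light chain, was the member that passed at 96 h, with a change of -1.15 ± 0.39 (adjusted p = 0.024).

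The 3 metabolic enzymes were Acadsb of branched-chain amino acid breakdown, the glutamine synthetase Glul and the AMP deaminase Ampd3. None passed at 24 h (with the replicate block Acadsb was lower, adjusted p = 0.007), while Acadsb and Ampd3 were lower at 96 h, with changes of -0.97 ± 0.27 and -0.45 ± 0.12 (adjusted p = 0.007 and 0.004). Glul spread between 9.20 and 11.61 at 1 to 3 h, and its 96 h change was -0.23 ± 0.47 (adjusted p = 0.80).

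The size of the rise after 48 h differed between replicates. The median difference between the 144 h and 48 h arrays was 1.24 in replicate 1, 0.68 in replicate 2 and 0.54 in replicate 3, and it was largest in replicate 1 for 51 of the 65 members. The rule asked for a rise in all 3, and the smallest in replicate 3 was 0.001 on this scale. The rule was also applied to 2 replicates at a time, and the third, which it had not used, was then read on the authors' scale. Chosen without replicate 1, 28 of 28 probes rose in it, with a median of 0.90, where 50.9% of all probes rose. Chosen without replicate 2, 63 of 65 rose in it (96.9%), with a median of 0.46, where 48.4% of all probes rose. Chosen without replicate 3, 95 of 223 rose in it (42.6%), with a median of -0.06, where 48.5% of all probes rose. The fall by 48 h carried over in all cases, with 98.5% to 100% of the chosen probes lower in the replicate left out. Of all probes, 51.3%, 47.9% and 51.0% were lower at 48 h than at 0 h in replicates 1 to 3. Of probes chosen by the 0, 12 and 48 h conditions alone, 348 of 407 rose in replicate 1, 232 of 376 in replicate 2 and 198 of 550 in replicate 3 when that replicate was left out.

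**Figure D4:**
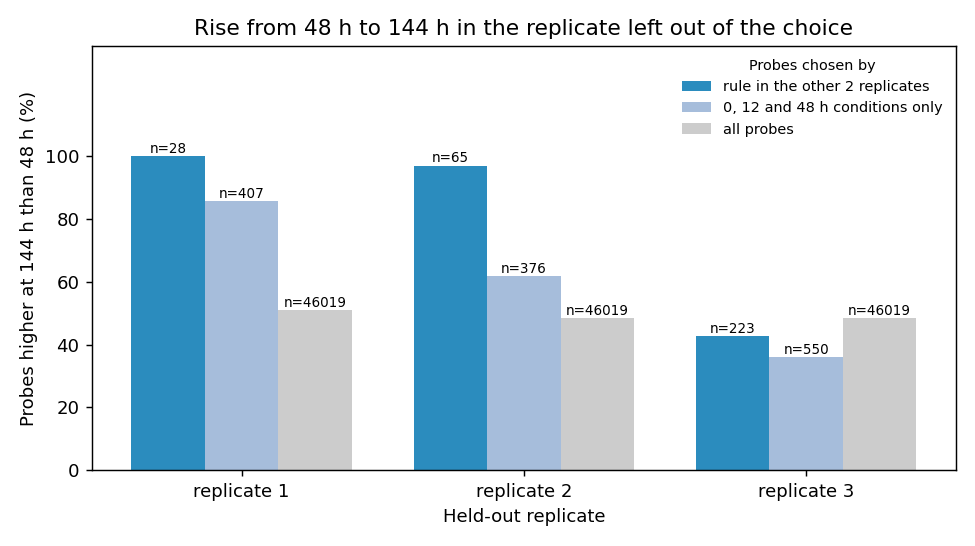
Share of probes higher at 144 h than at 48 h (vertical axis, percent, from 0) in the replicate left out of the choice (horizontal axis), for probes chosen by the whole rule in the other replicates, by its 0, 12 and 48 h conditions alone, and for all probes. The dark bars reach 100% and 96.9% in replicates 1 and 2, and 42.6% in replicate 3, below the 48.5% of all probes there.

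A group of 18 members shared large departures of single arrays. In each of these, chosen after the values were seen, the 144 h array of replicate 1 stood at least 1 above the mean of the other 2 arrays of that time. They were Dynlt3, Ogn, Luc7l2, Dnm3os, Kdm7a, Ghr, Tcf4, Dst, Acadsb, Zbtb20, Oxr1, Nfib and 6 probes without a gene. Of all tested probes, 2.21% did the same on that array. Dynlt3 read 13.31, 10.97 and 11.27 at 144 h in replicates 1 to 3, and 12.77, 11.23 and 10.81 at 1.5 h. On the 1.5 h array of replicate 1 the median departure of these 18 was 1.25, against 0.18 for the other 47 members. On the 9 h array of replicate 3 it was 1.02, against 0.05. The same members were thus high together on these arrays of different times and replicates. Arrays used by the rule and the tests departed too. Across the members, departures were correlated with those on the 144 h array of replicate 1. In replicates 1 to 3 the correlation was 0.43, -0.85 and 0.79 at 48 h. It was 0.70, -0.60 and -0.59 at 24 h, and 0.39, -0.38 and 0.07 at 96 h. On the 48 h array of replicate 3, 5 members stood over 1 above the other arrays, and on the 24 h array of replicate 1, 7 did.

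The rise after 48 h of these 18 had medians of 2.30 in replicate 1, 0.93 in replicate 2 and 0.12 in replicate 3. For the other 47, which include Aldh3a1, Cyp1b1, Cebpa, Mmp2, Txnip and Rcan2, the medians were 1.14, 0.62 and 0.67. The part of these array departures in the rise, or in the calls at the other times, was not tested.

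Cell cycle genes moved the other way between 48 h and 144 h. Of 20 on the list 15 were tested, and 6 were lower and 0 higher at 24 h than at 1 to 3 h, and 13 lower and 0 higher at 96 h. At 144 h against 48 h 12 were lower and 0 higher. Their mean level was 11.16 ± 0.09 before differentiation, 10.68 ± 0.11 after 24 h, 11.08 ± 0.15 after 48 h, 10.04 ± 0.46 after 96 h and 9.46 ± 0.44 after 144 h (SD, n = 3). The 48 h arrays, 11.24, 10.95 and 11.05, all lay above the 24 h arrays, which read 10.79, 10.67 and 10.57. Over the same times the 65 members averaged 12.05, 11.52, 10.64, 11.09 and 11.56. The members were thus lowest at 48 h, when the cell cycle genes stood near their 0 h level. Replicate 1, where the cell cycle genes were lowest at 144 h (8.95, against 9.77 and 9.65), had the largest rise of the members. Whether either had a part in the other was not tested.

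**Figure D5:**
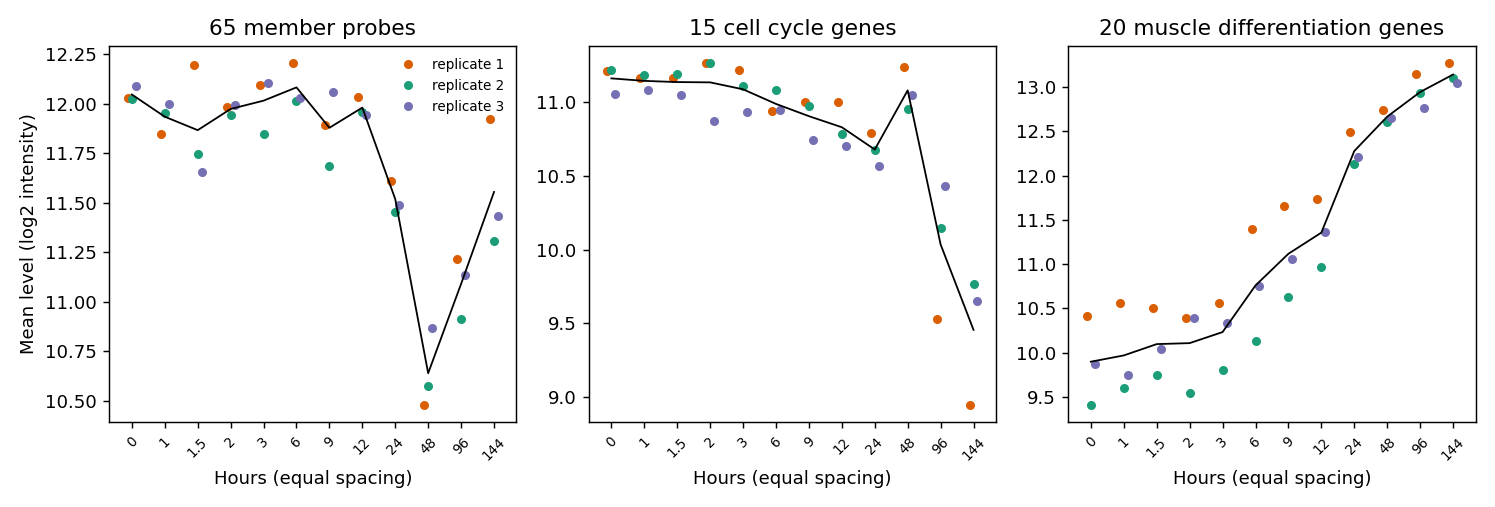
Mean level (vertical axes, log2 intensity) of the 65 member probes, 15 cell cycle genes and 20 muscle differentiation genes on each array at each time (horizontal axis, equal spacing), points coloured by replicate and a line through the mean of 3 arrays. At 48 h the members are at their lowest while the cell cycle genes stand at 11.08, above their 24 h mean of 10.68, and the muscle genes climb without a break.

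Other lists gave values beside the members without sharing a gene with them. Of 16 tested genes of reserve and satellite cells, the quiescent muscle precursors, 8 were higher and 2 lower at 24 h, and 4 were higher and 5 lower at 96 h. Of 17 serum response and actin genes, 0 were higher and 8 lower at 24 h, and 2 were higher and 9 lower at 96 h. Of 17 genes of the integrated stress response, 12 were higher and 0 lower at 96 h, and of 16 of sterol synthesis 8 were higher and 1 lower. Of 14 interferon genes, 1 was higher and 4 lower. The members' 0 higher and 47 lower at 96 h, out of 65, was a larger share of lower calls than in any of these lists except the cell cycle, where 13 of 15 were lower, and the difference between lists was not tested.

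Probes that fell by 48 h without that rise were the nearest comparison. At 24 h 19 of the 65 members were lower, with a median change of -0.40, against 149 of these 373 probes, with a median of -0.46. At 96 h 47 members were lower, with a median of -0.72, against 362 of these probes, with a median of -1.02. At 96 h against 24 h 14 members were lower, with a median of -0.42, against 146 of these probes, with a median of -0.58. Both sets were chosen by their 48 h and 144 h values, and the differences between them were not tested.

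Other probes of the member genes were read on the same arrays. Of 64 such probes 48 were tested, for 25 genes, and by sign 39 stood lower at 48 h than at 0 h and 37 higher at 144 h than at 48 h. Of all tested probes, 49.2% stood lower at 48 h than at 0 h and 52.4% lower at 144 h than at 48 h. The median changes of the 48 were -0.37 and 0.19. As lower at 48 h 21 passed, where 10.9% of all tested probes did. As higher after it 10 passed, where 3.95% of all did. Both were passed by 9, a count not made for all probes. For Nfib all 9 other probes stood lower at 48 h, with changes between -1.58 and -0.39, and their changes after 48 h lay between -0.01 and 0.52, none of which passed. A bright second probe of Ppp3ca changed by -1.42 to 48 h and by 0.77 after it. Both other tested probes of Kdm7a and the other of Luc7l2 had changes between -0.14 and -0.08 after 48 h, where their member probes rose by the rule. For Sft2d2, other probes changed by 0.32 and 0.36 to 48 h, where neither passed, and by 0.80 and 0.64 between 24 h and 96 h. A brighter Sft2d2 probe changed by -0.68 to 48 h and by 0.38 after it. The brighter other probe of Sesn3 changed by -0.16 to 48 h, which did not pass, and by 0.69 between 24 h and 96 h.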

How the data were processed

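Per the labels' protocols, Trizol-extracted total RNA was amplified and biotin-labelled for Illumina Mouse WG-6 arrays. The deposited raw table holds linear intensity values of 46019 probes. The normalized table deposited by the authors is in log2, by a method not given in the sources used here. All 44505 lines of another table with Illumina identifiers equalled 1 line of the normalized table on all 36 arrays (to 5 decimals), which named the probes through the platform's annotation: 28471 had 1 symbol, 10 several and 17538 none.

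Members were chosen on the normalized table. For levels and tests, raw intensities were corrected with limma's normexp (offset 50), taken to log2 and quantile-normalized. Probes above the array median on at least 3 arrays were fitted with a mean per time and an intensity trend (limma 3.58.1, R 4.3.3), with two-sided p-values adjusted by the Benjamini-Hochberg method over all 29812 tested probes and a threshold of 0.05. Figures used Python 3.11.15 and matplotlib 3.10.9. The fit was tested on simulated data.

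The members, gene lists, roles and tests were chosen with earlier results of these data known. The genes named by rule were the 10 lowest members at 48 h, the 10 with the largest rise after it, and, for each tested comparison of 24 h or 96 h, the 5 largest changes in each direction. Other genes were named after their values were seen, to cover each role. Same-numbered arrays deviated together from their time means in every comparison (lowest correlation across probes 0.15), which a shared chip could also give. The main tests had no term for the replicate number. Among the tests, the pairing by number entered only the alternative with the replicate block. Alternatives changed the table (the normalized one), the background step (none), the scaling (median or cyclic loess), the dim-probe filter (none or stricter) and the block (replicate or chip), or left out a replicate or an array. The number of arrays, 3 per time, limits the precision.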

Additional observations from a re-analysis of the deposited data

How the results depend on the processing

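Counts of called members moved by over 1.5 times with median scaling, with a block or with fewer arrays, and not with the table normalized by the authors, with cyclic loess, without background correction or with another filter on dim probes. At 24 h against 1 to 3 h, 21 members were called, 9 with median scaling, 35 with the replicate block, 32 with the chip as a block, and 8 to 25 when a replicate or an array was left out. At 96 h against 1 to 3 h, 47 were called, and 29 to 49 when a replicate or an array was left out. At 96 h against 24 h, 14 were called, 26 with the replicate block and 7 to 20 when a replicate or an array was left out. At 24 h against 9 h, 6 were called, 1 with median scaling, 12 with the replicate block, 16 with the chip as a block, and 0 to 4 when a replicate or an array was left out. At 9 h against 1 to 3 h, 3 were called, 6 with the replicate block, 5 with the chip as a block and 0 to 4 when a replicate or an array was left out. The cause of these shifts was not tested, except that leaving out a replicate leaves fewer arrays. The share of all tested probes called under each alternative is not given, so these counts are not set against a background. The pairing by replicate number moved no other count over all 65 members by over 1.5 times, and it ended none of the 17 named changes.

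The number of members was 65 on the authors' normalized values, 160 on background-corrected and quantile-normalized values (61 of the 65 among them), and 87 on log2 raw values (43 among them). It was between 28 and 223 with the rule applied to 2 replicates. Of the 17 named changes, 375 of 397 alternatives kept the direction and the side of the threshold, 22 kept the direction and missed the threshold, and 0 reversed. All 65 members passed the stricter filter on dim probes. Since a dip at 48 h and a rise by 144 h rest on 3 arrays each, the membership of single probes near the thresholds is uncertain. The rise as a whole did not carry over to replicate 3. Of the probes chosen without that replicate 42.6% rose in it, where 48.5% of all probes did.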
